A study of Homo sapiens with 12 samples.

Results

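The genes described here are 7 genes of the NOTCH pathway, the receptors NOTCH1 and NOTCH2, the DNA-binding partner RBPJ and the target genes HES1, HES4, DTX1 and NRARP. They were chosen by name from the pathway, with earlier results of these data known. They stand among 23617 gene symbols in the Granta-519 data and 23615 in the JeKo-1 data. RNA was sequenced from these human lines of mantle cell lymphoma (MCL), a B-cell lymphoma driven by cyclin D1, after infection with a lentivirus that delivered either shCycD1, an shRNA that silences cyclin D1, or the control shRNA shCtrl. The 4 groups were Granta-519 shCycD1, Granta-519 shCtrl, JeKo-1 shCycD1 and JeKo-1 shCtrl, with 3 libraries each that the series design calls biological replicates. Cells of every group, controls included, were infected and selected with puromycin. The labels name a single shRNA against cyclin D1, no clones and no time after infection. Granta-519 cells grew in RPMI and JeKo-1 cells in DMEM, so a difference between the lines cannot be told apart from a difference between the media. The comparison of shCycD1 with shCtrl within each line addresses which transcripts change with this shRNA. With a single shRNA, the loss of cyclin D1 cannot be told apart from other effects of that shRNA.

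NOTCH receptors are cut on the way to the cell surface by furin, and after binding a ligand on a neighbouring cell they are cut again by an ADAM protease and by gamma-secretase. The released intracellular domain enters the nucleus, where it joins RBPJ and a Mastermind coactivator on DNA and turns RBPJ from a repressor into an activator of genes such as HES1. In B cells NOTCH2 directs the marginal zone fate, and mutations that stabilise the intracellular domain of NOTCH1 or NOTCH2 recur in MCL.

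RBPJ binds a short motif, GTGGGAA, and the promoters that hold it show which members could carry such letters next to their start. The 250 bases before each start were read from RefSeq promoters (GRCh38.p14) for the 6 members found there, NOTCH1, NOTCH2, RBPJ, HES1, HES4 and NRARP. The letters GTGGGAA or their reverse complement TTCCCAC stood in 3 of the 6, and in 6.7% of all 27305 genes of the promoter table (5.4% of 35116 promoters). The stretches around the matches follow, on the strand of the gene, with the motif in capitals.
RBPJ, chr4:26319606-26319704, plus strand: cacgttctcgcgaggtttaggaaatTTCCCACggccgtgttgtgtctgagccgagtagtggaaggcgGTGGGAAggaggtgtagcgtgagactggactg
HES1, chr3:194136038-194136094, plus strand: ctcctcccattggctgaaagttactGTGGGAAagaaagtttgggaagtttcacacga
HES4, chr1:1000143-1000199, minus strand: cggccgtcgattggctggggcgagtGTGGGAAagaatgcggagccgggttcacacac
The match of HES1 begins at position -85 and that of HES4 at -77 relative to the gene's start. RBPJ itself held 2 matches in this window, which begin at position -115 (on the minus strand) and at -73 (on the plus strand) relative to the start. The windows of NOTCH1, NOTCH2 and NRARP did not hold these letters. Among 17 other target genes with a RefSeq promoter, 4 held them, HES5, HEY2, HEYL and FCER2. With the shorter TGGGAA the same 3 members matched, along with 24.6% of all genes. A match is a run of letters and not a measured binding site.

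Values are RPKM, reads scaled to gene length and to the reads of the library. A gene was tested in a line when 3 or more of its 6 libraries reached an RPKM of 1. The test was limma on log2(RPKM + 0.5), and a Benjamini-Hochberg adjusted p under 0.05 over all tested genes was called. Changes are shCycD1 minus shCtrl on that scale, where the change of a weakly expressed gene is understated, and their errors are standard errors (SE). Levels are not compared between the tables of the lines, which appear to use different gene lengths. The log base of the JeKo-1 values is inferred. If it were 2, the JeKo-1 changes of the tested members would be smaller (0.32 for NOTCH2, adjusted p = 0.0142 with limma) with the same calls.

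The silencing was visible in every library. CCND1, which encodes cyclin D1, stood at 213, 298 and 292 RPKM in Granta-519 shCycD1 libraries, against 924, 1044 and 874 RPKM in shCtrl libraries (log2 change -1.83, SE 0.145, adjusted p = 0.000257 with limma). JeKo-1 libraries gave the same picture, with 65.4, 64.8 and 67.4 RPKM for shCycD1, against 395, 330 and 315 RPKM for shCtrl (-2.38, SE 0.0927, adjusted p = 1.96e-06 with limma). The correlation between libraries of the same group (r of log2 values across genes) was 0.981 to 0.988 for Granta-519 and 0.968 to 0.974 for JeKo-1. The sequencing depth is unknown. B-cell markers such as MS4A1, CD79A, CD79B, PAX5 and CD22 were measured above the filter in both lines. Of 6 B-cell markers, 3 were called lower in Granta-519, with sums of 2090 to 2190 RPKM in shCycD1 and 2290 to 2380 RPKM in shCtrl libraries. In JeKo-1, 3 were called higher, with sums of 1280 to 1450 RPKM in shCycD1 and 907 to 1050 RPKM in shCtrl libraries. The 6 T and NK cell markers summed to 1.15 to 1.36 RPKM in Granta-519 shCycD1 and 0.995 to 1.45 RPKM in shCtrl libraries, and to 3.20 to 3.59 and 3.23 to 3.73 RPKM in JeKo-1 shCycD1 and shCtrl libraries. The 3 endothelial markers, of which PECAM1 was tested and called higher in both lines, summed to 15.7 to 20.1 RPKM in Granta-519 shCycD1 and 11.1 to 12.3 RPKM in shCtrl libraries, and to at least 8.54 RPKM in JeKo-1 shCycD1 and at most 3.65 RPKM in shCtrl libraries. The 3 fibroblast markers summed to 8.85 to 11.6 RPKM in Granta-519 shCycD1 and 7.46 to 8.16 RPKM in shCtrl libraries, and to 1.27 to 1.89 RPKM in JeKo-1 shCycD1 and 0.452 to 0.541 RPKM in shCtrl libraries. The 5 myeloid markers summed to 40.8 to 47.4 RPKM in Granta-519 shCycD1 and 46.6 to 52.7 RPKM in shCtrl libraries. Of 2 tested there, 1 was called higher. In JeKo-1 they summed to at most 2.41 RPKM. The 4 epithelial and kidney markers summed to at most 6.84 RPKM in Granta-519 (KRT18 not called) and 2.69 RPKM in JeKo-1 (KRT8 called higher). The mantle cell lymphoma marker SOX11 was called lower in both lines, and CD5 in JeKo-1. Which cells these marker transcripts came from was not tested, nor was their part in the results.

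**Figure D1:**
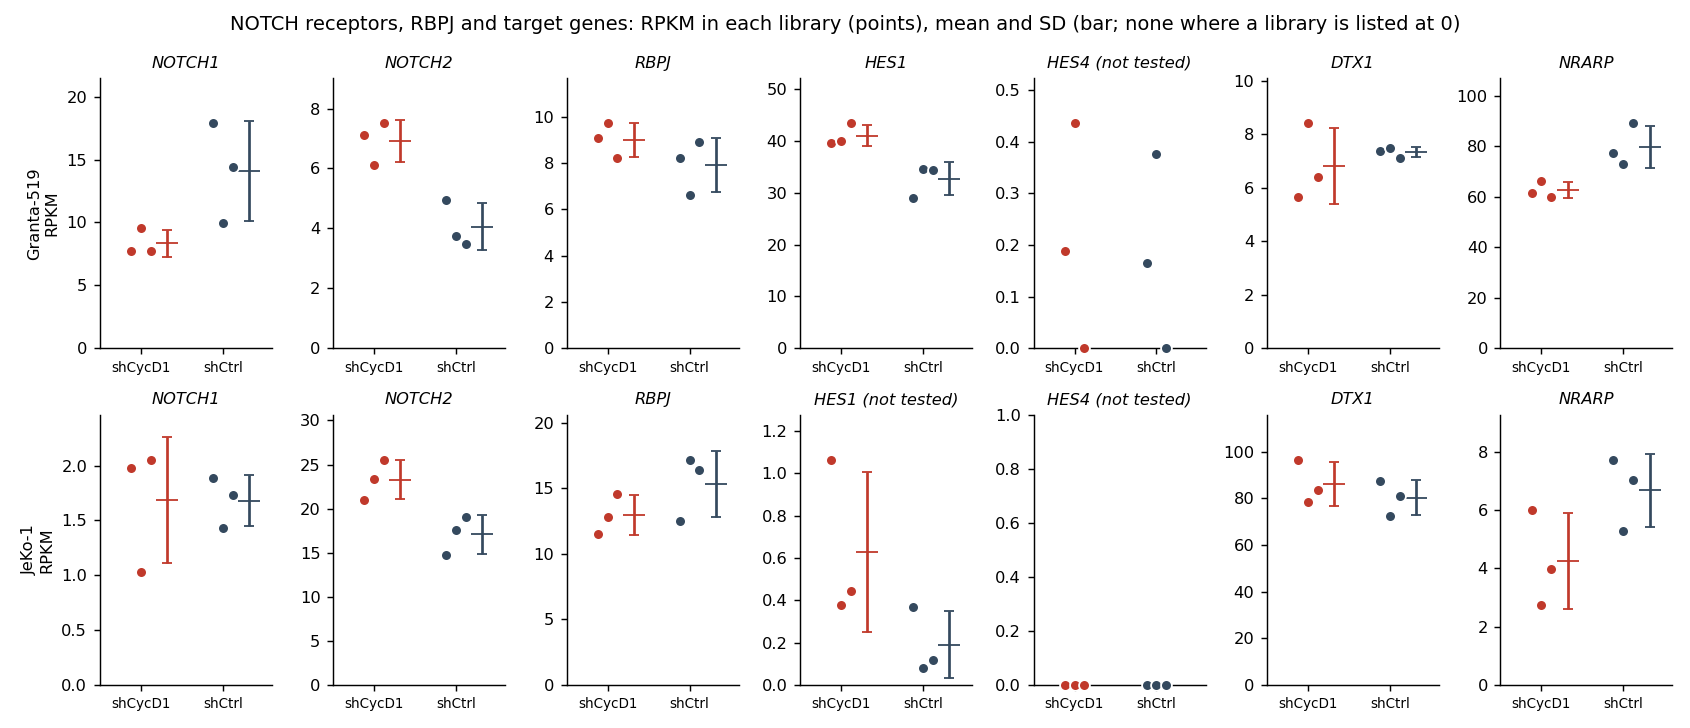
RPKM of each member in every library, on axes that start at 0 and differ between panels, with shCycD1 left of shCtrl in each line. Points are libraries and bars the mean with the SD of 3 libraries, drawn where no library is at 0. NOTCH2 libraries of shCycD1 all sit above those of shCtrl in both lines, and HES4 lies at or near 0 in both.

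The receptors moved in opposite directions in Granta-519. NOTCH1 stood at 7.75, 9.59 and 7.71 RPKM in Granta-519 shCycD1 libraries, against 17.9, 9.97 and 14.4 RPKM in shCtrl libraries. The groups did not overlap, but the highest shCycD1 library came close to the lowest shCtrl library, and the spread lay mainly in shCtrl. NOTCH1 fell, with means of 8.35 ± 1.08 RPKM in shCycD1 and 14.1 ± 3.97 RPKM in shCtrl (SD, n = 3 each; log2 change -0.69, SE 0.21, adjusted p = 0.035 with limma). The limma call was lost without shCtrl library 1 (-0.50, adjusted p = 0.0884), shCtrl library 3 (-0.66, 0.0873), shCycD1 library 1 (-0.64, 0.104) or shCycD1 library 3 (-0.64, 0.0952).

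NOTCH2 stood at 7.11, 6.13 and 7.51 RPKM in Granta-519 shCycD1 libraries, against 4.94, 3.75 and 3.47 RPKM in shCtrl libraries. Every silenced library lay above every control library. NOTCH2 rose, with means of 6.91 ± 0.709 RPKM in shCycD1 and 4.06 ± 0.782 RPKM in shCtrl (SD, n = 3 each), a fold of 1.64 (log2 change 0.71, SE 0.14, adjusted p = 0.0077 with limma). This call was kept with each of the 6 libraries left out in turn (0.62 to 0.85).

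In JeKo-1, too, NOTCH2 rose, and it was the member called there. Its levels were 21.0, 23.4 and 25.5 RPKM in JeKo-1 shCycD1 libraries, against 14.7, 17.6 and 19.0 RPKM in shCtrl libraries, with no overlap between the groups. Means were 23.3 ± 2.26 RPKM in shCycD1 and 17.1 ± 2.21 RPKM in shCtrl (SD, n = 3 each), a fold of 1.35 (log2 change 0.44, SE 0.12, adjusted p = 0.014 with limma). Without shCycD1 library 3 the limma call was lost (0.37, adjusted p = 0.0518), and so it was when libraries were scaled by the added ERCC spike-in RNAs (0.32, adjusted p = 0.476).

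NOTCH2NL, a partial copy of NOTCH2, moved the same way, and the counting may have split reads between the copies. It stood at 25.9, 20.7 and 24.97 RPKM in Granta-519 shCycD1 libraries, against 15.1, 11.9 and 12.3 RPKM in shCtrl libraries (log2 change 0.84, SE 0.126, adjusted p = 0.00243 with limma). JeKo-1 values were 10.3, 10.4 and 12.9 RPKM in shCycD1 libraries, against 6.86, 5.95 and 7.98 RPKM in shCtrl libraries (0.66, SE 0.136, adjusted p = 0.00404 with limma). The values of NOTCH2 are therefore uncertain as to which of the copies they come from.

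JeKo-1 had little NOTCH1, at 1.98, 1.03 and 2.05 RPKM in shCycD1 libraries, against 1.89, 1.43 and 1.73 RPKM in shCtrl libraries. The silenced libraries lay on both sides of the controls. The log2 change was -0.03 (SE 0.21, adjusted p = 0.911 with limma), and the change of NOTCH1 in Granta-519 minus that in JeKo-1 was -0.66 (SE 0.32, adjusted p = 0.115 with limma), so a difference between the lines was not called.

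RBPJ, which binds DNA for the whole pathway, did not pass the test in either line. It stood at 9.08, 9.73 and 8.23 RPKM in Granta-519 shCycD1 libraries, against 8.23, 6.63 and 8.93 RPKM in shCtrl libraries (log2 change 0.18, SE 0.12, adjusted p = 0.287 with limma). JeKo-1 values were 11.5, 12.8 and 14.6 RPKM in shCycD1 libraries, against 12.5, 17.2 and 16.4 RPKM in shCtrl libraries (-0.23, SE 0.14, adjusted p = 0.200 with limma). Both pairs of groups overlapped. The JeKo-1 value was called lower without shCtrl library 1, its lowest control (-0.36, adjusted p = 0.0341 with limma). A block for the replicate number also called it lower (-0.23, adjusted p = 0.0477 with limma). After a correction for GC content it was 0.04 and not called (adjusted p = 0.72 with limma).

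The target genes split in Granta-519, where HES1 rose and NRARP fell. HES1, a repressor of the basic helix-loop-helix family and a classic direct target, stood at 39.7, 40.0 and 43.4 RPKM in Granta-519 shCycD1 libraries, against 29.03, 34.7 and 34.5 RPKM in shCtrl libraries. The groups did not overlap, and the lowest library was shCtrl library 1. Means were 41.1 ± 2.07 RPKM in shCycD1 and 32.7 ± 3.22 RPKM in shCtrl (SD, n = 3 each), a fold of 1.25 (log2 change 0.33, SE 0.09, adjusted p = 0.029 with limma). The call was lost without shCtrl library 1 (0.24, adjusted p = 0.077 with limma) and without shCycD1 library 1 (0.35, 0.0643), 2 (0.34, 0.0586) or 3 (0.29, 0.095).

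NRARP, a small ankyrin-repeat protein that is induced by NOTCH and destabilises its intracellular domain, stood at 61.6, 66.3 and 59.9 RPKM in Granta-519 shCycD1 libraries, against 77.2, 73.1 and 89.0 RPKM in shCtrl libraries. All silenced libraries lay below all controls. Means were 62.6 ± 3.33 RPKM in shCycD1 and 79.8 ± 8.26 RPKM in shCtrl (SD, n = 3 each), a fold of 0.79 (log2 change -0.34, SE 0.09, adjusted p = 0.024 with limma). The call was lost without shCtrl library 1 (-0.36, adjusted p = 0.0552 with limma) or 3 (-0.26, 0.0513), and without shCycD1 library 1 (-0.33, 0.0773) or 3 (-0.31, 0.0792).

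In JeKo-1, NRARP stood at 6.0, 2.75 and 3.98 RPKM in shCycD1 libraries, against 7.71, 5.28 and 7.03 RPKM in shCtrl libraries. Silenced library 1 lay above control library 2, so the groups overlapped, though each silenced library lay below the control library of the same number. The log2 change of -0.64 (SE 0.25) did not pass (adjusted p = 0.060 with limma). With a block for the replicate number it did (adjusted p = 0.00479 with limma). It passed without shCycD1 library 1 (-0.89, adjusted p = 0.0105 with limma), without shCtrl library 2 (-0.79, 0.0445), after a correction for GC content (-1.33, 0.00173), with quantile normalization (-0.73, 0.0438) and with spike-in scaling (-0.75, 0.0357).

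In JeKo-1, HES1 was below the filter, with 1.06, 0.375 and 0.444 RPKM in shCycD1 libraries, against 0.370, 0.078 and 0.119 RPKM in shCtrl libraries. The groups did not overlap, though the nearest libraries, shCycD1 library 2 and shCtrl library 1, were close. The mean log2 difference was 0.68 (exact permutation p = 0.1, two-sided, the smallest that 3 against 3 libraries can give), and limma without the filter gave an adjusted p of 0.0837.

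HES4, a human relative of HES1 that mouse lacks, was not expressed at a level that could be tested. It stood at 0.188, 0.436 and 0 RPKM in Granta-519 shCycD1 libraries, against 0.164, 0.377 and 0 RPKM in shCtrl libraries, and was listed at 0 in all 6 JeKo-1 libraries. HES1 and HES4, whose printed windows each hold a single match, had very different levels in Granta-519.

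DTX1, a Deltex ubiquitin ligase that is itself a NOTCH target, did not pass the test in either line. In Granta-519 it stood at 5.64, 8.41 and 6.39 RPKM in shCycD1 libraries, against 7.37, 7.48 and 7.13 RPKM in shCtrl libraries (log2 change -0.12, SE 0.14, adjusted p = 0.545 with limma). Its JeKo-1 values were 96.4, 78.5 and 83.5 RPKM in shCycD1 libraries, against 87.5, 72.4 and 80.8 RPKM in shCtrl libraries (0.10, SE 0.10, adjusted p = 0.424 with limma). Silenced and control libraries were interleaved in both lines. With the GC correction the JeKo-1 change turned to -0.45 (adjusted p = 0.0029 with limma).

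**Figure D2:**
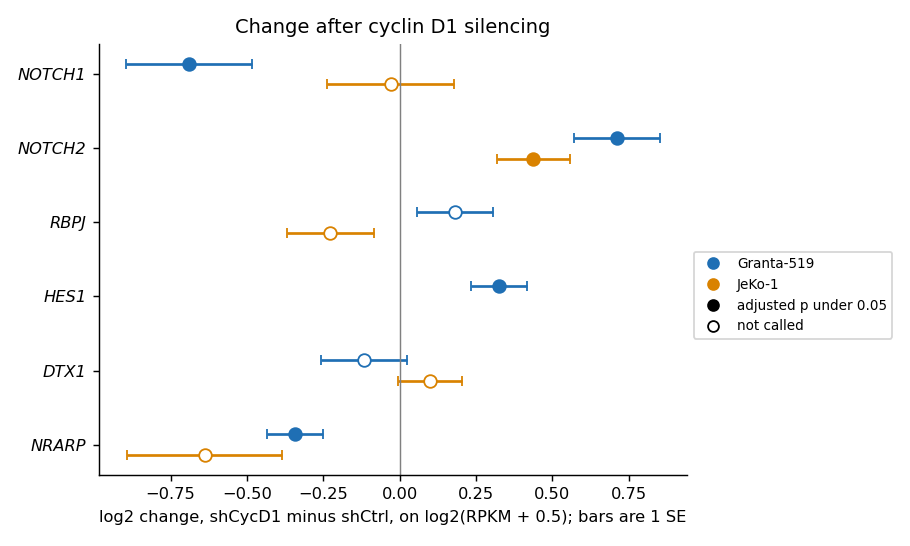
Log2 change (shCycD1 minus shCtrl) of the members tested in each line, with SE bars and called members filled. In Granta-519, NOTCH2 (0.71) and HES1 (0.33) lie above 0 and NOTCH1 (-0.69) and NRARP (-0.34) below it, and in JeKo-1 NOTCH2 (0.44) is the member called.

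Many genes were called in both lines, and the members' counts stand beside that background. In Granta-519, 6 of the 7 members were tested; 2 were called higher, 2 lower and 2 were not called, where 40.6% of all 12668 tested genes were called (22.4% higher and 18.2% lower). Their median change was 0.03, and that of all genes tested was 0.03. In JeKo-1, 5 members were tested; 1 was called higher and 4 were not called, where 64.6% of 11866 tested genes were called (36.7% higher and 27.8% lower). The median change was -0.03 for the members and 0.09 for all genes tested. Non-overlapping groups, seen for the same 4 tested members in Granta-519 and for NOTCH2 in JeKo-1, occurred in 54.0% of all tested genes in Granta-519 (29.8% higher and 24.2% lower) and in 69.6% in JeKo-1 (39.1% higher and 30.5% lower).

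No member's change was shown to differ between the lines. The change in Granta-519 minus the change in JeKo-1 was 0.27 for NOTCH2 (SE 0.19, adjusted p = 0.278 with limma), 0.41 for RBPJ (SE 0.20, adjusted p = 0.121), -0.22 for DTX1 (SE 0.18, adjusted p = 0.364) and 0.30 for NRARP (SE 0.29, adjusted p = 0.444). Of the 5 members tested in both lines, 0 were called by limma and 0 had an unadjusted p under 0.05, where 41.9% of 10653 genes were called (19.3% with the higher change in Granta-519 and 22.6% with the lower). The difference was called for NOTCH1 without Granta-519 shCtrl library 2 (-0.88, adjusted p = 0.029 with limma) or JeKo-1 shCycD1 library 2 (-0.90, 0.0226), and for RBPJ without JeKo-1 shCtrl library 1 (0.54, 0.0311). With the GC correction the difference was -0.17 for NOTCH1 (adjusted p = 0.697 with limma) and 0.14 for RBPJ (0.484). That of NRARP was then called (0.98, 0.0159).

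Scaling and base composition bear on these values. In JeKo-1 the median change ran with the GC content of the longest transcript, -0.26, -0.12, 0.07, 0.29 and 0.50 over 5 equal bins of genes from low to high GC, while in Granta-519 the medians of the bins lay between 0.00 and 0.06. GC content was 62.9% for NOTCH1, 63.6% for DTX1 and 67.3% for NRARP, 49.4% for NOTCH2 and 38% for RBPJ. With the GC correction NOTCH1 was called lower in JeKo-1 as well (-0.56, adjusted p = 0.0441 with limma). Spike-in scaling moved the median change of all genes in Granta-519 to 0.72, and there NOTCH1 was at 0.02, NRARP at 0.40 and HES1 at 1.07, so that NOTCH1 and NRARP lay below and HES1 and NOTCH2 (1.39) above that median, as in the main scaling, while the sign of NOTCH1 and NRARP turned.

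**Figure D3:**
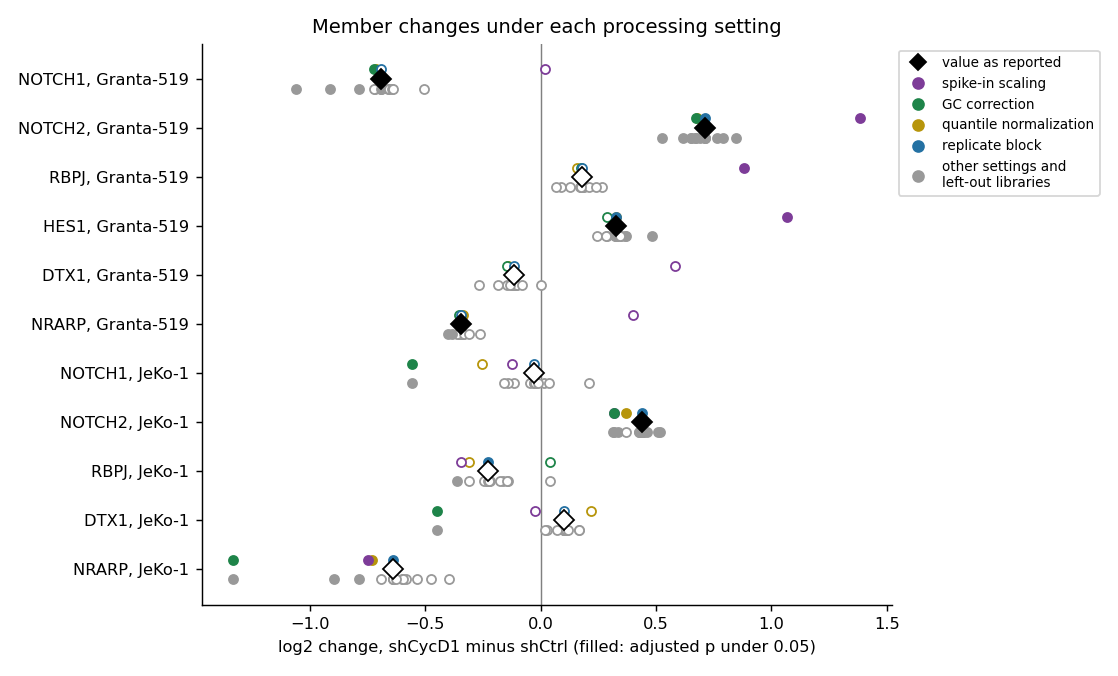
Log2 change of each tested member under each processing setting, by line, with filled points where adjusted p was under 0.05 (for NOTCH2 in JeKo-1 the open point of spike-in scaling lies under that of the GC correction). NOTCH2 stays above 0 in every setting of both lines, while NOTCH1 and NRARP in Granta-519 cross 0 under spike-in scaling and DTX1 in JeKo-1 falls below 0 under the GC correction.

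Within each table the members ranked differently. Among Granta-519 shCtrl libraries NRARP was highest and HES1 next, with NOTCH1, RBPJ, DTX1, NOTCH2 and HES4 below. RBPJ and DTX1 overlapped (6.63 to 8.93 and 7.13 to 7.48 RPKM), and the other neighbours did not. These levels are per kilobase of a length that may include introns in Granta-519, so the order between its genes depends on that length. Which length was used is not settled. In Granta-519, RPKM times length in kilobases summed to at least 9863428 per library for the genomic span. For the longest transcript it summed to at least 1614985, and both are more than RPKM allows. In JeKo-1 shCtrl libraries DTX1 was highest, followed by NOTCH2 and RBPJ, whose ranges overlapped, and then by NRARP, NOTCH1, HES1 and HES4. Levels in bulk RNA do not tell fewer expressing cells from less RNA per cell.

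Genes whose levels ran most closely with each member were ranked by Pearson's r over the 12 libraries, centred within each line, as a description without a test. For NOTCH2 they were TTC19 (r = 0.947), NOTCH2NL (0.946) and FBXO32 (0.933), and FBXO32, a ubiquitin ligase subunit, was at a log2 change of 1.54 in Granta-519 and 1.29 in JeKo-1. NRARP ran with TP53BP2 (0.924), SPIB (0.912), a B-cell transcription factor of the ETS family, and PIM1 (0.911), a serine/threonine kinase. For NOTCH1 they were LRRC8A (0.934), PAPD7 (0.923) and MED24 (0.917), for RBPJ CCSER2 (0.925), GTF2H3 (0.923) and UEVLD (0.921), and for DTX1 PAN2 (0.908), BCOR (0.886) and STAT6 (0.841). The 12 libraries share 2 lines and the silencing itself, so any gene with a similar change in both lines ranks high.

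The rest of the pathway was followed in 82 further genes, grouped by their place in it, of which NOTCH3 stands under both receptors and targets. In Granta-519, 65 were tested, 22 were called higher and 9 lower, with a median change of 0.10. In JeKo-1, 61 were tested, 31 were called higher and 12 lower, with a median change of 0.40. The shares of all genes called, given above, apply to these counts too. Of the 54 pathway genes tested in both lines, 13 were called higher in both and 5 lower in both. The share of all genes called the same way in both lines is not given here. These joint counts therefore have no background to be read against. In JeKo-1, FCER2, PTCRA and MAML3 passed the filter through shCycD1 libraries alone, and JAG1 and IL7R through shCtrl libraries alone. A filter passed through the higher group alone favours genes that differ, which limits what their adjusted p can show. Their calls were kept without the filter. Spike-in scaling ended, with the sign kept, the JeKo-1 calls of ADAM17, APH1B, NUMB, FBXW7, JAG2, MAML1, NCOR1, HDAC1, CIR1 and PLAC8 and the Granta-519 calls of NOTCH3 and PLAC8, among the genes named below. It also called genes higher in Granta-519 that the main scaling left uncalled. Among them were MIB2 (0.97, adjusted p = 0.00581 with limma), MAML1 (0.79, 0.022), BLK (0.78, 0.021), JAG1 (0.77, 0.0109) and PTCRA (0.74, 0.0105).

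**Figure D4:**
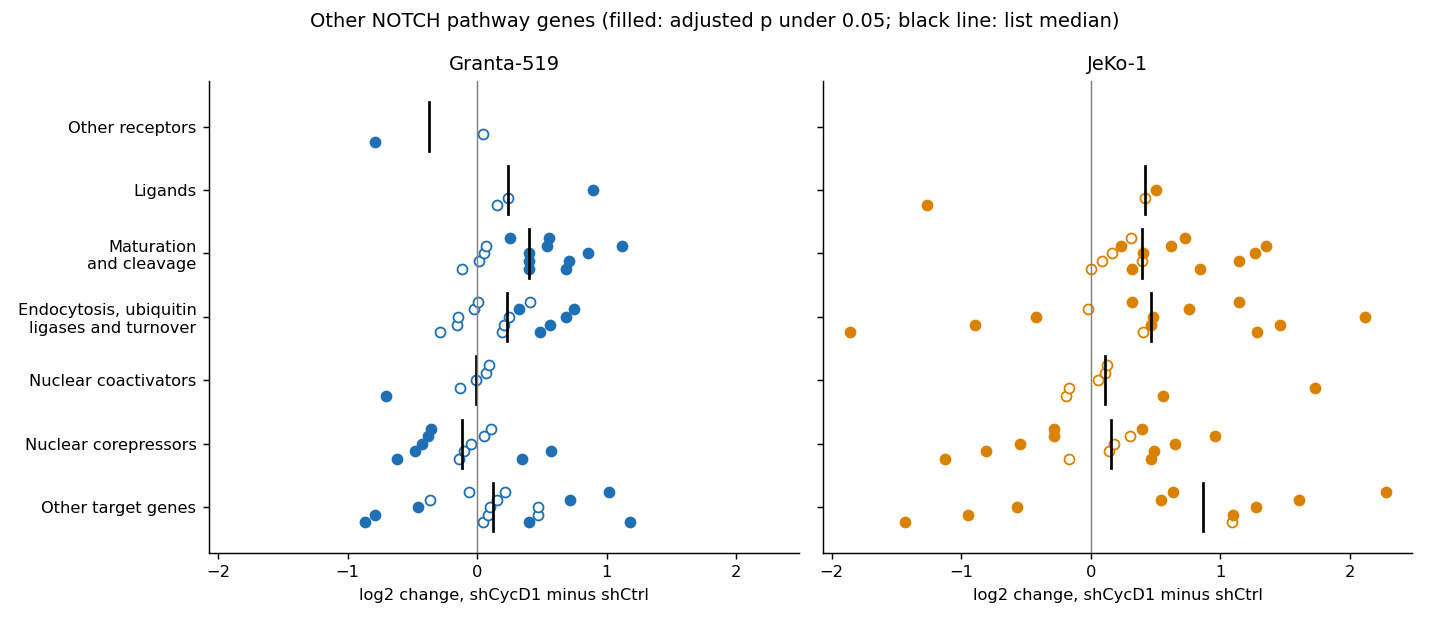
Log2 change (shCycD1 minus shCtrl) of every tested pathway gene by list and line, with called genes filled. The genes of receptor maturation and cleavage lie mainly above 0 in both lines, with medians of 0.40 and 0.40 and no member called lower.

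Of the genes for receptor maturation and cleavage, 10 of 14 tested were called higher in Granta-519 and 0 lower, with a median change of 0.40, where 22.4% of all tested genes were called higher. In JeKo-1, 9 of 14 were called higher and 0 lower, also with a median of 0.40, where 36.7% of all tested genes were called higher. All 14 genes were tested in both lines.

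Among them were subunits of gamma-secretase, the complex that releases the intracellular domain. NCSTN, its scaffold nicastrin, stood at 40.3, 45.3 and 39.9 RPKM in Granta-519 shCycD1 libraries, against 21.3, 15.8 and 20.4 RPKM in shCtrl libraries (log2 change 1.12, SE 0.123, adjusted p = 0.000769 with limma). Its JeKo-1 values were 45.9, 48.6 and 52.7 RPKM in shCycD1 libraries, against 22.4, 22.1 and 21.1 RPKM in shCtrl libraries (1.15, SE 0.0778, adjusted p = 2.31e-05 with limma). The groups were far apart in both lines, and the call was kept under every setting run.

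PSEN2, a catalytic subunit, was called higher in both lines, by 0.40 in Granta-519 and 1.36 in JeKo-1 (log2), as was the subunit APH1B by 0.71 and 0.32. APH1B in JeKo-1 lost its call without shCtrl library 1 or 3 or shCycD1 library 2 or 3 (0.26 to 0.33, adjusted p of 0.0596 to 0.0909 with limma). APH1A (0.25 in Granta-519, adjusted p = 0.033; 0.09 in JeKo-1, adjusted p = 0.38, limma) and PSENEN (0.40, adjusted p = 0.034; 0.39, adjusted p = 0.053) were called in Granta-519 alone, which is not a test of a difference between the lines. FURIN, the protease of the first cut, rose by 0.85 in Granta-519 and 1.27 in JeKo-1. The sheddase ADAM17 rose by 0.54 and 0.84, while the other sheddase ADAM10 was at 0.07 and 0.00 and was not called. ADAM17 in Granta-519 lost its call without shCtrl library 1 or shCycD1 library 1 or 2 (0.50 to 0.54, adjusted p of 0.0629 to 0.0766 with limma).

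Genes of endocytosis, ubiquitin ligation and turnover included 5 called higher and 0 lower of 14 tested in Granta-519 (median 0.23), and 8 higher and 3 lower of 13 tested in JeKo-1 (median 0.46). DTX3 and DTX4, other Deltex genes, rose in both lines. DTX3 stood at 22.4, 16.9 and 20.8 RPKM in JeKo-1 shCycD1 libraries, against 4.98, 3.99 and 3.72 RPKM in shCtrl libraries (log2 change 2.12, SE 0.142, adjusted p = 2.23e-05 with limma), and rose by 0.75 in Granta-519. DTX4 rose by 0.56 in Granta-519 and 1.28 in JeKo-1, though its Granta-519 call was lost without shCycD1 library 1, 2 or 3 (0.52 to 0.59, adjusted p of 0.0543 to 0.0725).

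Both lines had more of the NOTCH antagonists NUMB (0.33 in Granta-519, 0.48 in JeKo-1) and NUMBL (0.48, 1.15), as well as of FBXW7 (0.68, 0.32), the ubiquitin ligase subunit that targets the intracellular domain for degradation. The Granta-519 call of NUMB was lost without shCtrl library 1 or 2 or shCycD1 library 1, 2 or 3 (0.26 to 0.35, adjusted p of 0.059 to 0.122 with limma). In JeKo-1, MIB2, a ligase that acts on ligands, rose by 1.46 and NEURL1B, another such ligase, fell by 1.86, while in Granta-519 they were at 0.25 (adjusted p = 0.286 with limma) and -0.29 (adjusted p = 0.0747).

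Ligands were mostly too low to test, with 3 of 7 tested in each line. JAG1, a Jagged ligand, fell by 1.26 in JeKo-1 (SE 0.144, adjusted p = 0.000243 with limma). Its Granta-519 change of 0.24 did not pass (adjusted p = 0.321). JAG2 rose by 0.50 in JeKo-1, a call lost without shCtrl library 2 or 3 or shCycD1 library 1 or 3 (0.39 to 0.49, adjusted p of 0.0636 to 0.0827 with limma), and with the GC correction its value was -0.06. DLK2, a ligand-like protein that lacks the domain shared by the canonical ligands, rose by 0.90 in Granta-519 (SE 0.154, adjusted p = 0.00431 with limma).

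Of the other receptors, NOTCH3 was under the filter in JeKo-1 and fell in Granta-519. Its levels were 0.780, 1.08 and 0.677 RPKM in Granta-519 shCycD1 libraries, against 2.25, 1.63 and 1.604 RPKM in shCtrl libraries (log2 change -0.79, SE 0.158, adjusted p = 0.0079 with limma). NOTCH4 was tested in Granta-519 alone and was at 0.04 (adjusted p = 0.745).

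Nuclear cofactors were split. Of the coactivators, 0 were called higher and 1 lower of 5 tested in Granta-519 (median -0.01), where KAT2A, a histone acetyltransferase, fell by 0.70. In JeKo-1 2 were called higher and 0 lower of 7 tested (median 0.11), the Mastermind genes MAML1 (0.56) and MAML3 (1.73, SE 0.12, adjusted p = 2.5e-05 with limma). The MAML1 call was lost with the GC correction (0.25, adjusted p = 0.112 with limma) and with spike-in scaling (0.44, 0.302). The acetyltransferases EP300 and CREBBP were at 0.09 and -0.13 in Granta-519 and 0.11 and 0.13 in JeKo-1, and none of these passed.

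Corepressors, which hold RBPJ targets silent without NOTCH, were called higher in 2 and lower in 5 of 12 tested in Granta-519 (median -0.12), and higher in 5 and lower in 5 of 14 tested in JeKo-1 (median 0.16). Lower in both lines were the corepressor NCOR1 (-0.38 in Granta-519 and -0.54 in JeKo-1), the histone deacetylases HDAC1 (-0.36 and -0.29) and HDAC2 (-0.43 and -0.81), and SAP30 (-0.62 and -1.13), a subunit of the SIN3 deacetylase complex. CIR1, which links RBPJ to deacetylases, rose in both (0.57 and 0.65). TLE3, a Groucho-type corepressor, fell by 0.48 in Granta-519.

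The corepressor calls in Granta-519 depended on scaling and libraries. Under spike-in scaling NCOR1 (0.26), HDAC1 (0.38), HDAC2 (0.31), SAP30 (0.11) and TLE3 (0.24) were above 0, uncalled, and below the median of all genes of 0.72, as was KAT2A (0.03). NCOR1 in Granta-519 also lost its call without shCtrl library 1 or 3 or shCycD1 library 1 or 3 (-0.36 to -0.32, adjusted p of 0.123 to 0.153 with limma), and TLE3 without shCtrl library 1 or shCycD1 library 1 or 3 (-0.43 to -0.40, 0.0785 to 0.0839).

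Further target genes numbered 20, with 4 called higher and 3 lower of 16 tested in Granta-519 (median 0.12) and 6 higher and 3 lower of 10 tested in JeKo-1 (median 0.86). FCER2, the low-affinity IgE receptor CD23 of B cells, stood at 220, 206 and 218 RPKM in Granta-519 shCycD1 libraries, against 129, 144 and 119 RPKM in shCtrl libraries (log2 change 0.72, SE 0.0863, adjusted p = 0.00104 with limma). Its JeKo-1 values were 6.76, 6.57 and 4.81 RPKM in shCycD1 libraries, against 0.797, 0.858 and 0.861 RPKM in shCtrl libraries (2.28, SE 0.137, adjusted p = 1.33e-05 with limma). The groups did not overlap in either line. FCER2 is among the target genes whose promoter window holds GTGGGAA or its reverse complement. A link between that match and the change was not tested.

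HEY1, a repressor related to HES1, stood at 21.9, 20.95 and 20.1 RPKM in Granta-519 shCycD1 libraries, against 11.96, 9.05 and 9.51 RPKM in shCtrl libraries (log2 change 1.02, SE 0.113, adjusted p = 0.000797 with limma), and was under the filter in JeKo-1. PLAC8 was lower in both lines (-0.87 in Granta-519, -0.57 in JeKo-1), though its JeKo-1 call was lost with the GC correction (-0.38, adjusted p = 0.0557 with limma). TCF7, a transcription factor best known from T cells, rose by 1.18 in Granta-519 and fell by 0.94 in JeKo-1. Further calls in JeKo-1 included PTCRA (1.604), the pre-T-cell receptor alpha chain, IL7R (-1.44), the interleukin-7 receptor, and the B-cell kinase BLK (1.10), which was at 0.04 in Granta-519 (adjusted p = 0.667 with limma). DTX3L, a Deltex-like ubiquitin ligase, rose by 0.63 in JeKo-1, with an uncalled -0.36 in Granta-519 (adjusted p = 0.0851 with limma). Spike-in scaling ended its JeKo-1 call (0.51, adjusted p = 0.219 with limma). MYC, a NOTCH target in T-cell leukaemia, was at 0.10 in Granta-519 (adjusted p = 0.60 with limma), and its JeKo-1 level rose (1.27, adjusted p = 0.0031).

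HES6, a HES family member, was called in opposite directions with the main processing, but not with the GC correction. It stood at 36.5, 42.2 and 43.4 RPKM in Granta-519 shCycD1 libraries, against 53.1, 66.3 and 49.6 RPKM in shCtrl libraries (log2 change -0.46, SE 0.126, adjusted p = 0.0264 with limma). JeKo-1 libraries had 53.5, 43.7 and 41.3 RPKM with shCycD1, against 37.9, 29.4 and 27.7 RPKM with shCtrl (0.54, SE 0.145, adjusted p = 0.0129 with limma). The groups did not overlap in either line, and the change in Granta-519 minus that in JeKo-1 was -0.999 (SE 0.20, adjusted p = 0.00245 with limma). The Granta-519 call was lost without shCtrl library 1 (-0.49, adjusted p = 0.0529 with limma) or shCycD1 library 1 (-0.38, 0.0888) or 2 (-0.49, 0.0528). With spike-in scaling neither line was called and the Granta-519 value turned to 0.29 (adjusted p = 0.371 with limma), against 0.42 in JeKo-1 (0.351). With the GC correction HES6 was called lower in both lines, at -0.46 in Granta-519 (adjusted p = 0.0189 with limma) and -0.20 in JeKo-1 (0.0366). The difference between the lines was then -0.27 and not called (adjusted p = 0.16 with limma).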

How the data were processed

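RNA of 12 libraries was measured, and groups and replicate numbers were read from the sample titles. Total RNA went into stranded mRNA libraries, per the labels' protocols. TopHat2 2.1.1, limma 3.9, FastQC and the builds hg19 and GRCh37 appear, without roles, in the submitters' processing notes. The counter, annotation and transform: not given in the sources used here. The deposited tables, 1 per line and titled RPKM by the authors, were taken to hold ln(RPKM + 1), a natural log. A test on Granta-519 values bore on this: 79.2 to 87.2% of low values of short genes were whole multiples of a step within 0.1 under the natural log, against 40.5 to 44.9% under base 2. For JeKo-1 it is inferred from the spike-ins and not settled, and base 2 was run as an alternative.

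Values were taken out of the log, 1 row was kept per symbol (the highest mean), and log2(RPKM + 0.5) was fitted separately for each line (R 4.3.3, limma 3.58.1, eBayes with trend). A joint fit of 4 group means over 10653 genes gave the difference between lines. These values are not counts, so no count test was run. With 3 libraries per group, p-values measure the spread between these libraries.

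The members and the pathway and marker lists were chosen with earlier results of these data known. Named are all members, CCND1, list genes called the same way in both lines, up to 3 largest called changes per list and line, and the 3 genes nearest each member tested in both lines. NOTCH2NL, NOTCH4, ADAM10, APH1A, PSENEN, EP300, CREBBP, MYC, HES6, BLK, DTX3L and the other targets with a promoter match were named outside this rule, after their values were seen. Tests were tried on simulated data. Alternatives covered the pseudocount, filter, quantile and spike-in scaling, GC content (matched for 89.5% of 23708 symbols), library weights, row choice, log base, a replicate block and each library left out. Some genes of the lists enter the counts and are not reported by name here.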

Additional observations from a re-analysis of the deposited data

Results flagged for a closer look

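For 17 genes, CCND1 and list genes named here under the rule above, the change in Granta-519 minus that in JeKo-1 was called (limma interaction, adjusted p under 0.05). None of them is a member. Of all 54 pathway genes tested in both lines 27 were called, beside 41.9% of all genes tested in both lines. The change was higher in Granta-519 for TCF7 (2.12, adjusted p = 3.29e-06), NEURL1B (1.58, 0.000177), JAG1 (1.498, 0.000484), CCND1 (0.55, 0.0306), SAP30 (0.51, 0.00868), HDAC2 (0.38, 0.00823) and FBXW7 (0.37, 0.0182). It was lower in Granta-519 for FCER2 (-1.56, adjusted p = 2.55e-05), PTCRA (-1.39, 0.000155), DTX3 (-1.37, 0.000117), MIB2 (-1.22, 0.0136), PSEN2 (-0.96, 0.000451), TLE3 (-0.78, 0.0129), DTX4 (-0.72, 0.0228), NUMBL (-0.66, 0.0362), KAT2A (-0.53, 0.0114) and MAML1 (-0.49, 0.0395). Taking the JeKo-1 values as log2, 9 of the 17 were called and 14 kept their sign; JAG1 and PTCRA had no value there, and CCND1 turned to -0.16 (adjusted p = 0.486). With the GC correction 10 were called and all 17 kept their sign, and 6 were called under both. For these 17 the difference under spike-in scaling is not given here. That scaling put the median change of all genes at 0.72 in Granta-519 and -0.03 in JeKo-1. MAML1 was then at 0.79 in Granta-519 and 0.44 in JeKo-1, the reverse of its order in the main scaling. The order of the lines can therefore depend on the scaling. FCER2, PTCRA and JAG1 passed the JeKo-1 filter through the higher group alone. Of the genes named outside the rule, HES6 (-0.999, adjusted p = 0.00245 with limma), MYC (-1.18, 0.0103), BLK (-1.05, 0.00015) and DTX3L (-0.995, 0.00204) were called too. With the GC correction HES6 lost that call (-0.27, adjusted p = 0.16 with limma).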

How the results depend on the processing

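NOTCH2 kept its direction in both lines under every setting run (0.53 to 1.39 in Granta-519, 0.32 to 0.52 in JeKo-1). Without the filter NOTCH1 in Granta-519 was not called (-0.69, adjusted p = 0.0668). With a mean RPKM of 5 or more, 2874 genes were called higher in JeKo-1 and 7 pathway genes lower. Quantile normalization called NRARP in JeKo-1 (-0.73, adjusted p = 0.0438) and the difference of RBPJ (0.47, 0.0477). Spike-in scaling put the median of all Granta-519 genes at 0.72 and that of all JeKo-1 genes at -0.03. It turned NOTCH1 (0.0207, adjusted p = 0.955) and NRARP (0.40, 0.196) in Granta-519, called RBPJ there (0.88, 0.0121), lost NOTCH2 (0.32, 0.476) and called NRARP (-0.75, 0.0357) in JeKo-1, and called the differences of NOTCH2 (1.07), RBPJ (1.23) and NRARP (1.15). It turned NCOR1 (0.26), HDAC1 (0.38), HDAC2 (0.31), SAP30 (0.11), KAT2A (0.0338) and TLE3 (0.24) in Granta-519. Under it 7362 genes were called higher and 161 lower in Granta-519 (97.9% of calls higher, against 55.2% in the main scaling), with 47 and 0 pathway genes, and 1688 and 1734 in JeKo-1, with 14 and 7 pathway genes. The GC correction ended the Granta-519 calls of HES1 (0.29, adjusted p = 0.0504) and NRARP (-0.35, 0.0511), called NOTCH1 (-0.56, 0.0441) and NRARP (-1.33, 0.00173) in JeKo-1, turned DTX1 (-0.45, 0.0029) and JAG2 (-0.0627, 0.702) there, and called the difference of NRARP (0.98, 0.0159). Library weights gave 3579 genes and 14 pathway genes lower in Granta-519 and called the difference of NOTCH1 (-1.06, 0.00592). With JeKo-1 read as log2, 3993 genes were called higher and 3161 lower, and NOTCH2 (0.32, 0.0142) kept its call.

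The labels do not say whether replicate numbers pair the libraries, and the main fit ignores any such pairing. Same-numbered deviations correlated at 0.01, -0.12 and 0.03 among Granta-519 libraries, where 0 shCycD1 libraries correlated best with their own number. Among JeKo-1 libraries they correlated at 0.19, 0.09 and 0.10, and all 3 shCycD1 libraries correlated best with their own number. A replicate block left NOTCH1 (-0.69, adjusted p = 0.0778) and NRARP (-0.34, 0.0677) in Granta-519 uncalled, and called RBPJ (-0.23, 0.0477) and NRARP (-0.64, 0.00479) in JeKo-1. The block gave 2285 higher and 1903 lower genes in Granta-519 (15 and 7 in the pathway) and 4901 and 3806 in JeKo-1 (37 and 12). The GC correction with the replicate block gave, in Granta-519, NOTCH1 at -0.72 (adjusted p = 0.0606), HES1 at 0.29 (0.0672) and NRARP at -0.35 (0.105), and, in JeKo-1, NOTCH1 at -0.56 (0.0122), DTX1 at -0.45 (0.00254), NRARP at -1.33 (0.00083) and JAG2 at -0.0627 (0.581), with a difference of 0.98 (0.0105) for NRARP.

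With each library left out in turn, Granta-519 changes ranged over -0.91 to -0.50 for NOTCH1, 0.24 to 0.37 for HES1 and -0.40 to -0.26 for NRARP. JeKo-1 changes ranged over 0.34 to 0.52 for NOTCH2, -0.36 to -0.14 for RBPJ and -0.89 to -0.40 for NRARP. Differences ranged over -0.90 to -0.48 for NOTCH1 and 0.29 to 0.54 for RBPJ, and pathway genes called higher in Granta-519 over 14 (without shCycD1 library 1) to 19. Of 54 called changes of named pathway genes and CCND1, 32 were kept under every setting run. For the called or uncalled values that changed above, the cause was not tested. Depth is unknown, so no counting interval can be given.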
